A study of Saccharomyces cerevisiae with 12 samples.

Results

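The regions described here surround the start codons of 7 budding yeast genes, YHR050W-A, PRM2, NTA1, VIR1, RIM101, IOC2 and ARB1, of 6002 annotated nuclear genes. They were chosen by their methylation in no Abf1 against WT Abf1 libraries, which had risen over the promoter or next to an Abf1 motif, so values from that contrast are given as a description, without a test. Each region reached 600 bp upstream and 500 bp downstream of the start codon. Together the regions held 261 CpG sites of 354295 in the nuclear genome, and all 261 were covered by at least 5 calls in every library.

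Methylation was read by ODM-seq, an occupancy measurement in which the bacterial enzyme M.SssI methylates CpG sites of formaldehyde-crosslinked chromatin wherever nucleosomes or other proteins leave them free, and Nanopore reads report the methylated cytosines. All strains were BY4741 carrying ABF1-aa-V5 clone A9, an anchor-away allele with which 8 µg/mL rapamycin for 75 min removes the chromosomal Abf1 from the nucleus. What differed was a pRS315 plasmid: the empty vector (no Abf1), Abf1 with its essential motif shuffled (EM shuffle), or wild-type Abf1 (WT Abf1). Per the study, its designed variants were made in a minimal Abf1 without the first disordered region, and carried a Flag tag. EM shuffle and WT Abf1 can therefore differ in more than the order of this motif. Each construct had 2 biological replicates, each split into a 3 h and a 4 h aliquot with M.SssI, which makes 12 libraries. The EM shuffle libraries were all of another labelled batch, so for them construct and batch cannot be told apart. ABF1 itself was covered at 0.821 to 1.06 times its surroundings in no Abf1 and 0.901 to 1.10 times in EM shuffle libraries, but at 1.78 to 1.92 times in WT Abf1 libraries. A second copy of ABF1 was thus seen in the WT Abf1 libraries and not in those labelled EM shuffle, and every EM shuffle value below is that of the libraries so labelled. EM shuffle does not sustain growth as the only Abf1, so like no Abf1 it could be studied only after the chromosomal protein had been removed for a short time. Libraries held 13253872 to 37756743 calls, with a median of 32 to 94 calls per CpG site, and the genome average was 28.1% to 30.4% in no Abf1, 23.4% to 25.4% in EM shuffle and 26.1% to 30.2% in WT Abf1. The replicates were independent clones. Where 4 values are given for a construct, they are replicate 1 at 3 h and 4 h and then replicate 2 at 3 h and 4 h.

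Abf1 is a general regulatory factor, an abundant protein that binds a bipartite DNA motif in many promoters and helps to keep a stretch of DNA free of nucleosomes. At such a promoter a CpG can be unmethylated because Abf1 itself covers it, a footprint about as wide as the motif, or because a nucleosome covers it, a much wider block. Removing the factor can then raise methylation under the motif and lower it next to the motif.

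The sequences around the Abf1 matches of the 7 regions are shown first, because 22 of the 27 sites within 15 bp of a match were higher in no Abf1. Over the genome, 48.8% of sites inside a match upstream of a gene and 16.3% of those 7 to 15 bp from its centre were higher. The sequences shown are from RefSeq R64, written 5′ to 3′ on the strand of the gene named, with matches to the Abf1 consensus in capitals. Each match holds at least 1 CpG, so its own methylation can be compared with that of CpG sites outside. Positions count from the first base of the start codon, the base before it being −1.
YHR050W-A, chrVIII:209385-209455, plus strand, −90 to −20: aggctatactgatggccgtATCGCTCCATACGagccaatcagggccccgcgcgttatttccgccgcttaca
PRM2, chrIX:285339-285419, minus strand, −420 to −340: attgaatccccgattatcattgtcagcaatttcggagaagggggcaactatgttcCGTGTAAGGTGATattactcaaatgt
NTA1, chrX:555044-555084, minus strand, −235 to −195: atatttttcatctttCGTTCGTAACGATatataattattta
VIR1, chrVII:428296-428396, plus strand, −305 to −205: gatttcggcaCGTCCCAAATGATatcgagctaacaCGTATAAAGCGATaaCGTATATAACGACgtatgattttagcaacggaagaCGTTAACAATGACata
RIM101, chrVIII:50831-50891, plus strand, −280 to −220: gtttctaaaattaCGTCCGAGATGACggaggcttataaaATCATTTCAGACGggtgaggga
IOC2, chrXII:332245-332300, minus strand, −185 to −130: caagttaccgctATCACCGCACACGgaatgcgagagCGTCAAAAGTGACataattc
ARB1, chrV:225459-225539, minus strand, −340 to −260: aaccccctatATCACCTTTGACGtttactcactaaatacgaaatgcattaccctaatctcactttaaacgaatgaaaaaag

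All 7 promoters held the Abf1 consensus within 600 bp upstream, as did 19.7% of 5999 promoters of the same length. Genes were chosen in part for a rise next to this motif, so nothing follows from that share. VIR1 held 4 matches, and RIM101 and IOC2 held 2 each. At least 2 matches were present in 2.42% of all promoters. Other motifs were counted in the same way. The Reb1 motif TTACCCG and the Cbf1 motif CACGTG occurred in 0 of the 7, against 10.99% and 7.23% of all promoters. The motifs of Ste12, Ume6 and Rim101 occurred in 2 each, against 14.6%, 11.4% and 23.2%. TATAAA occurred in 6 and poly(dA:dT) in 4, against 65.2% and 68.2%. With 7 genes such counts cannot be set apart from these shares, and nothing is read from them. A match is a run of letters and says nothing of binding.

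The promoter windows were compared first. A window was the stretch 250 to 51 bp before the start codon, and its methylation is the share of methylated calls over all its CpG sites, divided by a factor with which the authors equalised the genome average of each construct. A single library had 87 to 668 calls in a window, and the 95% Wilson interval of its percentage had a half-width of 3.68 to 10.2 percentage points, which covers counting error only. Errors below are SD over 2 biological replicates.

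The window of YHR050W-A (chrVIII:209225-209424), a short gene that codes for an uncharacterised protein, had 43.2%, 48.1%, 50.1% and 43.4% methylation in the no Abf1 libraries, 21.3%, 23.3%, 23.9% and 34.3% in the EM shuffle libraries, and 18.5%, 18.1%, 15.3% and 14.9% in the WT Abf1 libraries. The window of PRM2 (chrIX:285050-285249), a pheromone-regulated gene whose membrane protein acts in nuclear fusion during mating, had 39.3%, 39.8%, 48.7% and 47.7% in no Abf1, 34.9%, 28.9%, 31.6% and 27.7% in EM shuffle, and 15.96%, 20.2%, 21.9% and 17.2% in WT Abf1. In both windows all 4 no Abf1 libraries lay above all 8 others. The window of NTA1 (chrX:554900-555099), the amidase that deamidates N-terminal asparagine and glutamine in the N-degron pathway, had 61.7%, 71.5%, 64.5% and 68.6% in no Abf1, 51.8%, 53.0%, 51.3% and 41.7% in EM shuffle, and 45.3%, 41.9%, 41.6% and 42.9% in WT Abf1. The window of IOC2 (chrXII:332166-332365), a subunit of an ISW1 chromatin remodelling complex, had 58.7%, 62.1%, 63.9% and 59.7% in no Abf1, 46.8%, 43.7%, 41.6% and 40.3% in EM shuffle, and 44.5%, 44.7%, 45.1% and 47.3% in WT Abf1. In these windows the no Abf1 libraries again stood apart, while the EM shuffle and WT Abf1 libraries overlapped.

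The other windows did not bear out the description of a more methylated promoter. The window of VIR1 (chrVII:428351-428550), a component of the mRNA N6-methyladenosine writer complex, had 59.3%, 60.5%, 59.6% and 59.8% in no Abf1, 65.4%, 77.7%, 85.3% and 85.2% in EM shuffle, and 60.6%, 70.8%, 69.5% and 73.1% in WT Abf1. All 4 no Abf1 libraries were thus below all 8 others, but the highest, at 60.51%, was only just below the lowest WT Abf1 library, at 60.65%. Before division by the factor the no Abf1 libraries had 61.8% to 63.1% and overlapped with both other constructs, whose lowest values were 60.6% in WT Abf1 and 57.0% in EM shuffle. The window of RIM101 (chrVIII:50861-51060), the transcription factor of the alkaline pH response, had 54.4%, 55.5%, 56.6% and 50.95% in no Abf1, 56.7%, 60.6%, 66.0% and 44.7% in EM shuffle, and 46.2%, 57.3%, 48.8% and 53.8% in WT Abf1. The window of ARB1 (chrV:225250-225449), an ABC-family ATPase of ribosome biogenesis, had 78.5%, 78.9%, 77.9% and 77.9% in no Abf1, 80.2%, 88.5%, 84.7% and 89.9% in EM shuffle, and 67.0%, 83.4%, 77.3% and 80.2% in WT Abf1. For both, no Abf1 and WT Abf1 libraries overlapped. VIR1, RIM101 and ARB1 are therefore described below as genes with a rise at an Abf1 match and not over the promoter window.

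**Figure D1:**
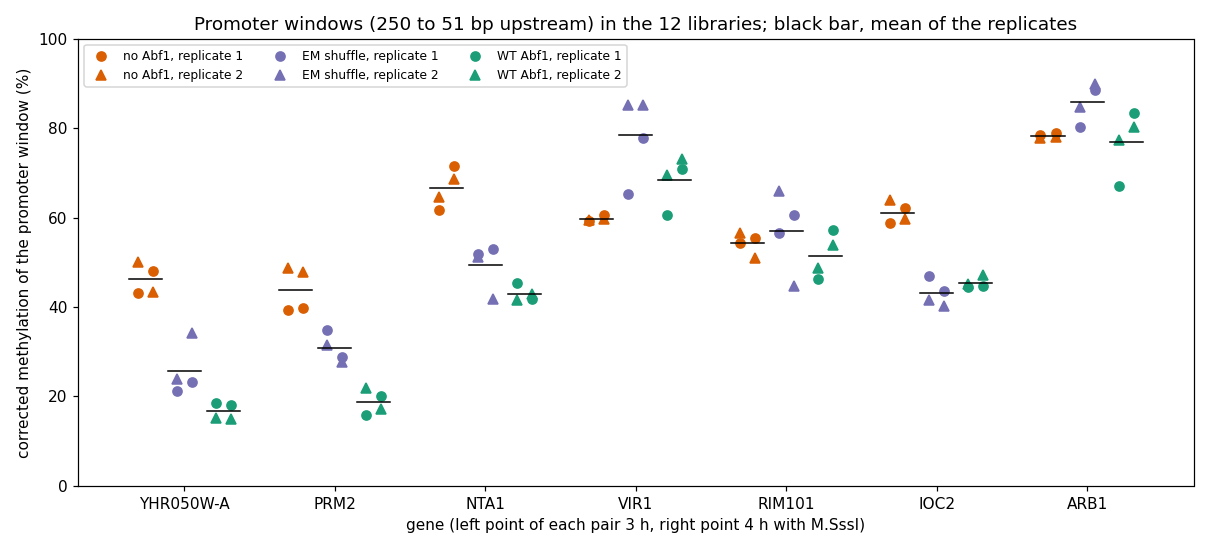
Corrected methylation (%) of the promoter window of each of the 7 genes in the 12 libraries; colours are constructs, circles and triangles are replicates 1 and 2, left and right points of a pair are the 3 h and 4 h aliquots, and black bars are means of the 2 replicates. The no Abf1 points of YHR050W-A, PRM2, NTA1 and IOC2 lie above the WT Abf1 points, those of VIR1 lie below them, the nearest only just, and those of RIM101 and ARB1 overlap with them.

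On the scale of log2 odds, relative to the genome averages, the no Abf1 over WT Abf1 ratio was 2.14 ± 0.19 (SE) for YHR050W-A, 1.72 ± 0.23 for PRM2, 1.51 ± 0.17 for NTA1 and 1.00 ± 0.13 for IOC2. It was 0.35 ± 0.21 for ARB1, 0.26 ± 0.19 for RIM101 and −0.42 ± 0.16 for VIR1. Among 5845 windows YHR050W-A and PRM2 ranked 1 and 2 by rise, ahead of MKT1 and BYE1, and NTA1 ranked 5 together with RPA12, whose window holds the same 4 CpG sites. IOC2 ranked 31, ARB1 464, RIM101 729 and VIR1 5376. Across all windows 4.36% were higher and 11.9% lower in no Abf1 without overlap of the libraries. In all 11.5% passed, 3.99% upwards and 7.48% downwards, and 20.5% reached an unadjusted p under 0.05, by a quasi-binomial logistic model with limma's moderated dispersion. Calls here and below are at an adjusted p under 0.05. Over a window from 400 to 1 bp upstream, which takes in more of the matches, the ratios were 0.75 for YHR050W-A, 0.87 for PRM2, 0.89 for NTA1, 0.71 for IOC2, 0.68 for ARB1, 0.72 for RIM101 and 0.38 for VIR1. For RIM101 and ARB1 the ratios were 0.51 and 0.64 with the 3 h aliquots alone and −0.056 and −0.054 with the 4 h aliquots alone, and for VIR1 −0.27 and −0.68 with the same aliquots. Without WT Abf1 replicate 1 they were 0.15 for RIM101, 0.0975 for ARB1 and −0.74 for VIR1, and without WT Abf1 replicate 2 they were 0.62 for ARB1 and −0.13 for VIR1.

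At single CpG sites most sites at an Abf1 match were higher, but most of the higher sites lay elsewhere. Of the 261 sites, 69 were higher in all 4 no Abf1 than in all 4 WT Abf1 libraries, 28 were lower and 164 overlapped. Over the nuclear genome 5.31% of sites were higher in this sense and 4.43% lower. Within 15 bp of the centre of a match 22 of 27 sites were higher and 0 were lower, and farther away 47 of 234 were higher, 45 of them over 75 bp from any match. Of all genome sites inside a match upstream of a gene 48.8% were higher and 5.54% lower. At 7 to 15 bp these shares were 16.3% and 24.4%. The 7 genes were chosen in part for a rise at a match, so nothing is read from the shares. The sites away from a match were 10 of the 13 higher sites of YHR050W-A, 9 of 9 of PRM2, 2 of 8 of VIR1, 3 of 7 of RIM101, 18 of 23 of IOC2 and 5 of 6 of ARB1, and NTA1 had none. Of 56 sites that were higher by at least 10 percentage points 22 lay within 15 bp of a match, and all 56 were also higher on each strand taken alone.

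For the 19 CpG sites inside a match the median methylation was 65.9% in no Abf1, 41.4% in EM shuffle and 32.2% in WT Abf1, and the median difference of no Abf1 minus WT Abf1 was 32.5 points. Inside all such matches upstream of genes, 1227 sites, the medians were 52.7%, 47.0% and 38.0% in the same order of constructs, with a median difference of 11.3 points. At 7 to 15 bp from the centre the 8 sites of the 7 regions had a median difference of 17.6 points, against −2.34 over the 529 sites of the genome at that distance. From 16 to 30 bp the medians were −2.49 over 10 sites and −8.95 over 895, and from 31 to 75 bp they were 0.786 over 14 sites and −8.42 over 1924. From 16 to 75 bp the medians were closer to 0 in these regions than over the genome, where methylation was lower without Abf1. The regions were chosen for rises in this same contrast, so nothing is read from how their medians differ from those of the genome.

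**Figure D2:**
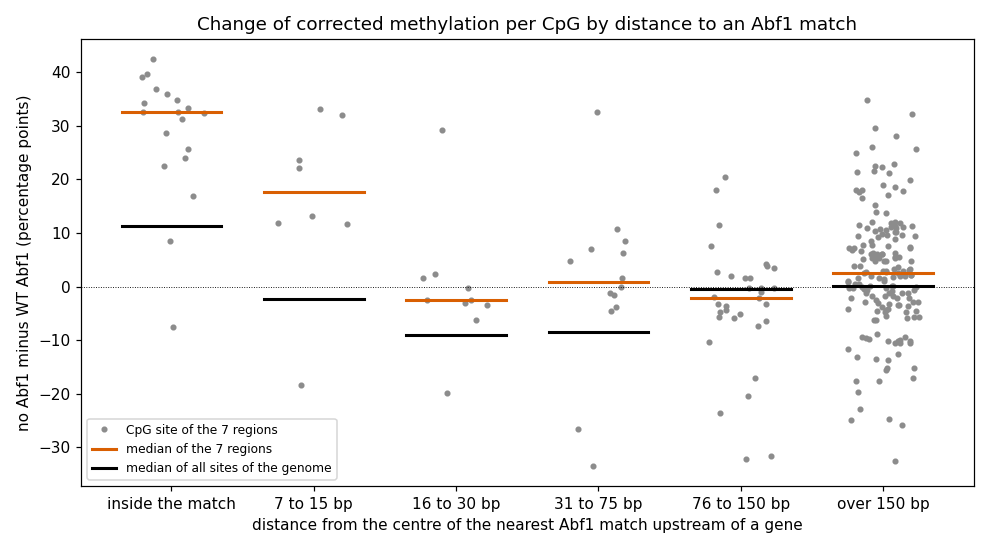
Change of corrected methylation (no Abf1 minus WT Abf1, percentage points) at each of the 261 CpG sites, by distance from the nearest Abf1 match upstream of a gene; grey points are sites, orange bars their medians, black bars medians over all CpG sites of the genome at that distance. The orange bar is at 32.5 points inside the match, at −2.49 from 16 to 30 bp and at 0.786 from 31 to 75 bp.

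The 7 regions held 12 matches. The CpG sites inside were higher in all no Abf1 than in all WT Abf1 libraries at 9 matches, by 24.0 to 40.7 points, and overlapped at 3. Among all 829 matches upstream of genes 52.5% were higher and 5.79% lower. Of the 9, EM shuffle libraries lay below all no Abf1 libraries at 8 and above all WT Abf1 libraries at 4. EM shuffle lay below no Abf1 at 32.4% of all matches, but the 9 were picked for high values in no Abf1, so the shares cannot be compared. A single library had 26 to 275 calls inside a match, with Wilson half-widths of 5.15 to 17.1 points.

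At YHR050W-A the match centred on −65 lay between the stop codon of SMF2, a metal ion transporter, and the start codon. Its 2 CpG sites had 59.3%, 61.5%, 60.9% and 53.1% in no Abf1, 23.7%, 26.9%, 31.1% and 44.3% in EM shuffle, and 20.4%, 18.5%, 16.4% and 16.8% in WT Abf1. The 5 CpG sites of the same gap that follow, from −43 to −27, averaged 71.1% ± 2.50 in no Abf1, 84.3% ± 8.01 in EM shuffle and 73.7% ± 6.74 in WT Abf1 (SD, n = 2 each). A dip of 55.6 points between flank and match in WT Abf1 was thus 12.4 points in no Abf1 and 52.8 in EM shuffle. The EM shuffle values had been divided by 0.871, which raises them and widens their differences in points. Both its flank value and its dip were smaller before this division. The flanks of no Abf1 and WT Abf1 libraries overlapped, so the rise at the match did not extend to these sites. A separate block of rises lay upstream, inside the SMF2 coding sequence: the sites at −394, −388, −384 and −379 had 40.6%, 30.1%, 25.0% and 24.5% in no Abf1, 25.2%, 22.5%, 13.4% and 17.1% in EM shuffle, and 12.5%, 8.57%, 3.74% and 5.82% in WT Abf1. Those at −229 and −194, also in SMF2, were higher in no Abf1 by 24.9 and 18.1 points, and −268 between the blocks was lower, with a difference of −15.1 points. The window of this gene takes in −229 and −194, so its rise was the sum of sites in or next to the match and of 2 sites in SMF2.

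At NTA1 the match centred on −214 held 3 CpG sites, and nothing else in the region rose. The 3 sites had 55.5%, 71.1%, 60.5% and 63.9% in no Abf1, 37.4%, 38.7%, 40.6% and 27.0% in EM shuffle, and 30.1%, 27.6%, 24.4% and 27.7% in WT Abf1. The next site downstream, at −123, had 76.7% ± 1.152 in no Abf1, 88.1% ± 3.90 in EM shuffle and 82.7% ± 0.916 in WT Abf1, and no Abf1 and WT Abf1 libraries overlapped. Of 26 sites in the region, 3 were higher and 1 was lower, and the 3 were those of the match. NTA1 faces RPA12, a subunit of RNA polymerase I, across a gap of 345 bp, and both windows rest on these 3 sites and on −123.

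At PRM2 all higher sites lay away from the match. Its window holds no consensus, and the match centred on −359 had 1 CpG with 49.9%, 50.4%, 43.3% and 53.3% in no Abf1, 41.9%, 34.7%, 37.2% and 24.6% in EM shuffle, and 25%, 30%, 28.0% and 45.8% in WT Abf1, so no Abf1 and WT Abf1 libraries overlapped. Its flanks were lower in no Abf1: the site at −410 had 56.1% ± 1.99 in no Abf1, 91.3% ± 0.204 in EM shuffle and 82.7% ± 0.276 in WT Abf1, and −388 differed by −19.9 points. The 3 sites of the window, at −220, −190 and −180, were higher by 20.4, 32.3 and 22.4 points. Here −190 had 50.3% ± 6.13 in no Abf1, 37.9% ± 2.23 in EM shuffle and 18.0% ± 3.47 in WT Abf1. Rises also lay at −25 and 155, by 25.97 and 22.4 points, and the sites at 214, 229 and 241 in the coding sequence were lower, with differences of −17.1, −13.8 and −9.87 points. Higher and lower blocks thus alternated from −568 to 241, with the match next to the lower block. CST6, a transcription factor gene, faces PRM2, and its window, whose 4 CpG sites are those from −568 to −514 here, had a no Abf1 over WT Abf1 log2 odds ratio of 1.07 ± 0.19 (SE).

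**Figure D3:**
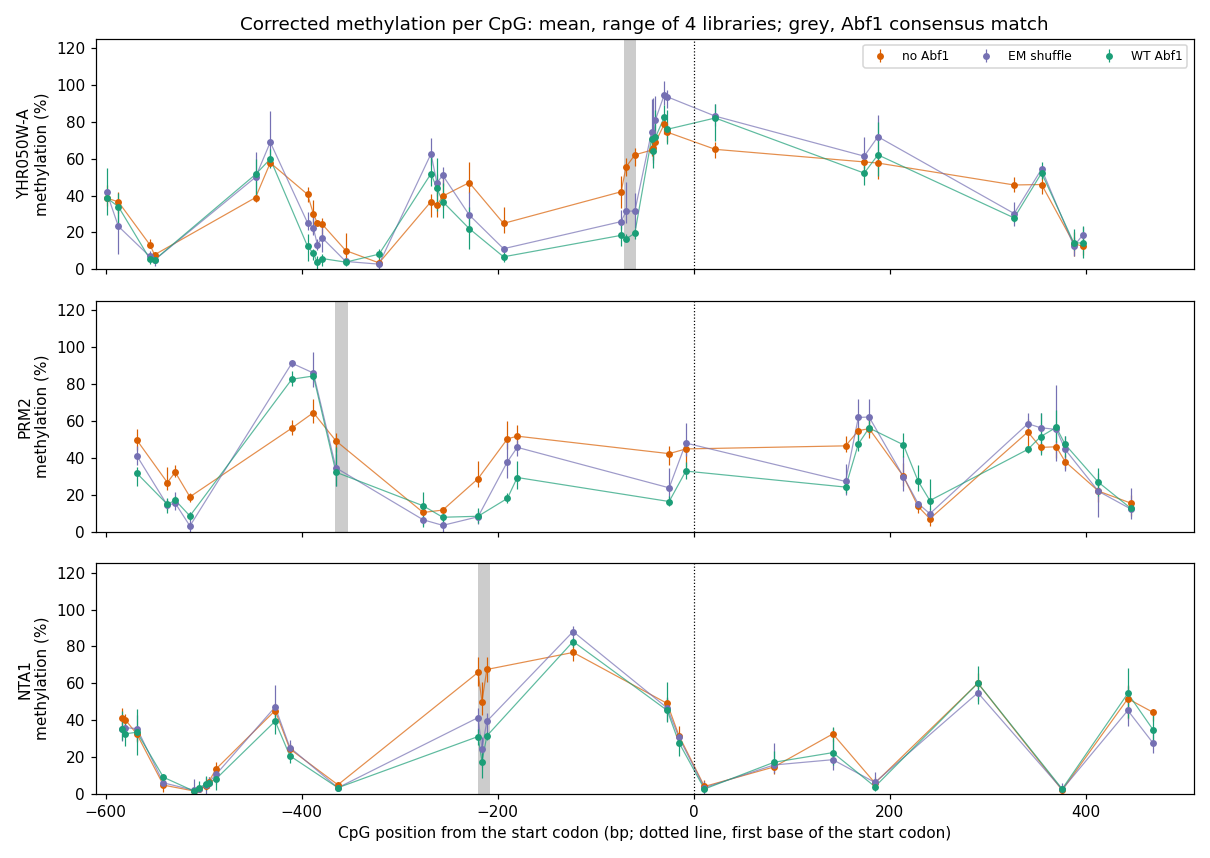
Corrected methylation (%) of each CpG site of YHR050W-A, PRM2 and NTA1 by position from the start codon; points are means of the 4 libraries of a construct, vertical lines their range, grey bands Abf1 matches. In YHR050W-A and NTA1 the no Abf1 points rise inside the grey band, and in PRM2 they fall beside it and rise from −220 to −180.

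At VIR1 the 4 matches, centred on −289, −264, −249 and −214, did not behave alike. The pair in the middle had low methylation with Abf1. Inside the match at −264 the CpG sites had 74.4%, 74.5%, 73.2% and 75.0% in no Abf1, 56.9%, 64.2%, 58.4% and 39.9% in EM shuffle, and 32.1%, 40.2%, 35.6% and 43.4% in WT Abf1. Inside the match at −249 they had 72.7%, 66.9%, 70.0% and 69.4% in no Abf1, 47.5%, 59.7%, 61.8% and 49.0% in EM shuffle, and 35.2%, 42.2%, 44.9% and 44.3% in WT Abf1. At both, each EM shuffle library lay between the other constructs, except that 1 EM shuffle library at −264 was within the WT Abf1 range. The outer matches were highly methylated in every construct: the match at −289 had 82.0% ± 3.51 in no Abf1, 82.4% ± 3.55 in EM shuffle and 73.5% ± 5.98 in WT Abf1, and that at −214 had 64.6% ± 3.26 in no Abf1, 83.0% ± 7.45 in EM shuffle and 72.2% ± 7.15 in WT Abf1. Downstream methylation was lower without Abf1. The sites at −112, −109 and −77 had 47.8%, 43.9% and 49.4% in no Abf1, 79.9%, 80.6% and 83.1% in EM shuffle, and 80.0%, 75.5% and 73.0% in WT Abf1. In the coding sequence 7 sites from 406 to 451 were lower, with differences of −11.7 to −25.8 points. Of the 7 sites in the window of VIR1 these 3 upstream sites were lower, −246 and −243 at the match were higher, and −227 and −220 overlapped.

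At RIM101 the largest rises were at the matches, in a stretch that was otherwise highly methylated with and without Abf1. Inside the match at −261 the CpG sites had 76.1%, 80.6%, 71.9% and 77.3% in no Abf1, 57.4%, 59.0%, 37.6% and 30.5% in EM shuffle, and 38.0%, 51.4%, 45.9% and 48.4% in WT Abf1. The EM shuffle replicates differed there, those of replicate 1 being above and those of replicate 2 below all WT Abf1 libraries. Inside the match at −235 the CpG had 50.8%, 48.5%, 52.9% and 38.4% in no Abf1, 32.1%, 39.7%, 43.0% and 31.7% in EM shuffle, and 19.4%, 21.1%, 25.4% and 22.2% in WT Abf1. The nearest sites outside, at −293, −284 and −209, had 84.0%, 71.5% and 82.0% in no Abf1, 97.6%, 85.7% and 92.8% in EM shuffle, and 84.0%, 74.9% and 79.6% in WT Abf1. Dividing by the authors' factor can carry EM shuffle values past 100%. Nearer the gene −141 was lower in no Abf1, with a difference of −20.4 points, and −32 was higher by 19.0. The window of RIM101 holds −230, which was higher, −209, which overlapped, and −141.

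At IOC2 the EM shuffle libraries were closer to WT Abf1 at the 2 matches, and closer to no Abf1 at a site downstream and in the coding sequence. Inside the match at −167 the CpG sites had 57.5%, 63.1%, 63.4% and 58.6% in no Abf1, 37.4%, 20.7%, 14.3% and 18.5% in EM shuffle, and 23.1%, 24.7%, 24.2% and 32.6% in WT Abf1. Inside the match at −143 the CpG had 63.3%, 69.3%, 66.9% and 63.9% in no Abf1, 47.6%, 45.1%, 42.5% and 45.5% in EM shuffle, and 32.3%, 33.3%, 35.4% and 37.5% in WT Abf1. The site between the matches, −155, had 65.8% ± 2.62 in no Abf1, 57.0% ± 1.59 in EM shuffle and 52.7% ± 6.84 in WT Abf1. Downstream the site at −86 had 29.996% ± 2.74 in no Abf1, 35.1% ± 2.86 in EM shuffle and 63.4% ± 0.153 in WT Abf1, with all EM shuffle libraries below all WT Abf1 libraries. In the coding sequence the sites at 40, 53 and 56 had 61.9%, 62.2% and 58.0% in no Abf1, 65.1%, 62.0% and 59.6% in EM shuffle, and 27.1%, 32.6% and 35.1% in WT Abf1. The site at 98 had 16.5%, 24.8% and 48.9% in no Abf1, EM shuffle and WT Abf1. All 4 of these coding sites set EM shuffle apart from WT Abf1 and not from no Abf1. At the 2 matches EM shuffle stood apart from no Abf1. It overlapped with WT Abf1 at −167, but at −143 all EM shuffle libraries were also above all WT Abf1 libraries. Upstream, 4 sites from −379 to −355 were higher in no Abf1 by 18.1 to 25.7 points. They belong to the window of KIN2, the protein kinase gene that faces IOC2, which had a log2 odds ratio of 0.54 ± 0.12 (SE).

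At ARB1 the match centred on −324 had 1 CpG with 72.7%, 70.9%, 71.7% and 67.6% in no Abf1, 52.5%, 45.9%, 43.5% and 42.5% in EM shuffle, and 39.6%, 35%, 61.3% and 50.9% in WT Abf1. Unlike at the other genes the sites that follow rose as well: −302 had 74.6% ± 3.00 in no Abf1, 48.3% ± 0.610 in EM shuffle and 45.4% ± 0.915 in WT Abf1, and −272 had 71.1% ± 1.12, 49.5% ± 0.965 and 38.5% ± 1.05 in the same constructs. Downstream of them −241 had 84.0%, 98.5% and 89.1% in no Abf1, EM shuffle and WT Abf1, and no Abf1 and WT Abf1 libraries overlapped. Upstream, 5 sites from −386 to −373 had 24.2% to 38.5% in no Abf1, 19.3% to 28.3% in EM shuffle and 19.3% to 31.4% in WT Abf1, and again overlapped.

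**Figure D4:**
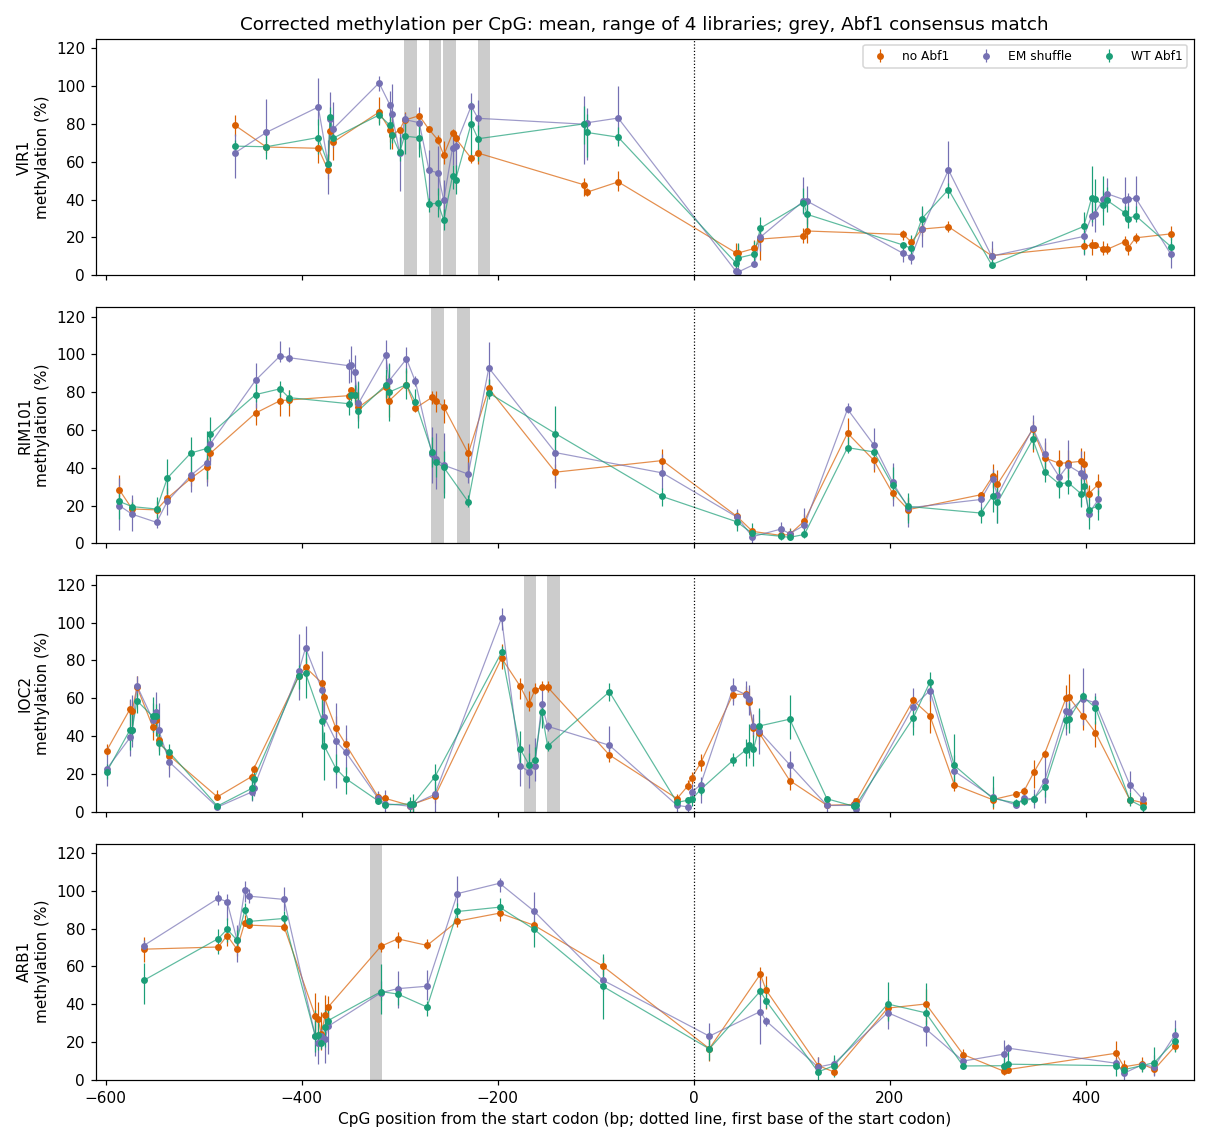
Corrected methylation (%) of each CpG site of VIR1, RIM101, IOC2 and ARB1 by position from the start codon; points are means of the 4 libraries of a construct, vertical lines their range, grey bands Abf1 matches. The no Abf1 points stand above the WT Abf1 points in or next to the grey bands, other than the outer bands of VIR1, where the ranges overlap. They lie below them downstream in VIR1, and at 40 to 56 in IOC2 the EM shuffle points lie with the no Abf1 points.

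The flanks of the matches were then compared with and without the sites of neighbouring matches. Flanks were the CpG sites 10 to 75 bp from the centre of a match, which 11 of the 12 matches had. The flank difference of no Abf1 minus WT Abf1 was above 0 at 9 of the 11, and at 7 the libraries did not overlap. Of 810 matches in the genome 2.47% had higher flanks and 58.5% lower flanks without overlap. The genes were chosen in part for a rise next to a match, so nothing is read from these shares. Several of the flank sites of the 7 regions lie inside another match. Without sites within 15 bp of another match, an alternative chosen after the data had been seen, the difference was above 0 at 2 of the 11, and only at ARB1 were all no Abf1 libraries still above all WT Abf1 libraries. At PRM2 and at the IOC2 match at −143 they were all below.

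The flanks of the VIR1 match at −214 were higher in no Abf1 by 21.6 points over 7 sites. This was among the 5 largest flank rises of the genome, with matches upstream of CDC24, RTN1/LYS4, RIM101 and ARB1. Such rises were part of the choice of genes, so nothing is read from this rank. Of these 7 sites 1 remained, and there the difference was −18.3 points, at 61.9% ± 0.485 against 80.2% ± 11.1 in WT Abf1, with overlap. The flanks of the RIM101 match at −235 were higher by 16.2 points over 6 sites, and the 3 that remained had 79.7% ± 1.02 in no Abf1, 92.5% ± 2.30 in EM shuffle and 79.8% ± 1.00 in WT Abf1. The flanks of the IOC2 matches at −167 and −143 were higher by 14.8 and 12.9 points, and the remaining sites differed by −2.97 and −18.5 points. At these genes the flank rise was carried by sites in or next to another match. At ARB1 no site was left out, and the flanks had 45.0% ± 3.07 in no Abf1, 30.98% ± 3.90 in EM shuffle and 30.2% ± 3.00 in WT Abf1.

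**Figure D5:**
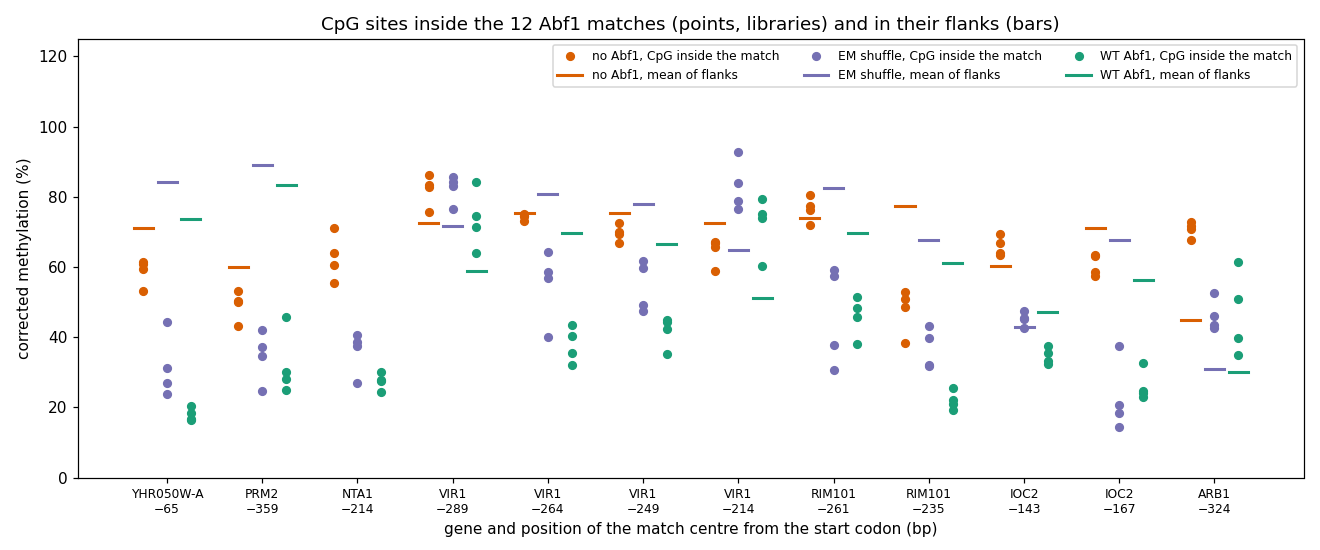
Corrected methylation (%) inside each of the 12 Abf1 matches, with libraries as points, and the mean of all flank sites 10 to 75 bp away as bars, in the order no Abf1, EM shuffle and WT Abf1 for each match. At 9 matches the no Abf1 points lie above the WT Abf1 points, and at 8 of these 9 the EM shuffle points lie below the no Abf1 points.

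The raised ARB1 sites outside the match, −302 and −272, each lie in a sequence that fits the consensus when its first base is left free. This search was also chosen after the values had been seen. The sequences are given on the strand of ARB1, with the CpG as their last bases.
ARB1, chrV:225500-225512, minus strand, centre −307: CTCACTAAATACG
ARB1, chrV:225470-225482, minus strand, centre −277: CTCACTTTAAACG
In the 7 regions 4 such sequences were found. The others were 1 that overlaps the consensus match of NTA1 and 1 at RIM101, centred on −319, whose CpG had 82.7% ± 5.24 in no Abf1, 99.5% ± 0.863 in EM shuffle and 83.8% ± 3.20 in WT Abf1 and so did not rise. Of 194 such sequences upstream of genes and away from a consensus match, 17.0% were higher in no Abf1 without overlap and 8.25% lower. Those with C as first base, as at ARB1, were higher in 25 of 79 cases and those with T in 8 of 115. Most sequences of this form thus did not behave like the pair at ARB1.

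EM shuffle was then set beside each of the other constructs. The EM shuffle libraries had no part in choosing the genes, but the high no Abf1 and low WT Abf1 values they are compared with did, so the values of the 7 windows are again a description, without a test, and no share of them is read against all windows. The EM shuffle over WT Abf1 log2 odds ratio was 0.82 ± 0.23 (SE) for YHR050W-A and 0.91 ± 0.27 for PRM2, and in both all 4 EM shuffle libraries were higher than all 4 WT Abf1 libraries. The ratios of the other 5 lay between −0.17 for IOC2 and 0.28 for NTA1. The fit over all windows called 1.09%, of which 0.513% upwards and 0.582% downwards, and 12.5% reached an unadjusted p under 0.05, while the libraries did not overlap in 18.7% that were higher and 1.78% that were lower. The ratio of YHR050W-A was 0.54 with the 3 h aliquots alone, 0.53 without EM shuffle replicate 2 and 0.51 over a window from 400 to 1 bp upstream, and over that window the ratio of PRM2 was 0.38.

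The EM shuffle over no Abf1 ratio was −1.32 ± 0.19 (SE) for YHR050W-A, −1.22 ± 0.17 for NTA1, −1.16 ± 0.13 for IOC2 and −0.81 ± 0.22 for PRM2. For VIR1 it was 0.70 ± 0.17, and for RIM101 and ARB1 −0.09 ± 0.20 and −0.21 ± 0.21. In corrected percent methylation the first 4 windows were lower and those of VIR1 and ARB1 higher in all 4 EM shuffle libraries than in all 4 no Abf1 libraries, so for ARB1 the corrected percentages and the ratio, which was fitted to the calls with an offset for the genome averages, had opposite directions. Over all windows 11.6% were called, 8.43% being higher and 3.13% lower, 22.2% reached an unadjusted p under 0.05, and the libraries did not overlap in 34.2% that were higher and 3.49% that were lower. Over a window from 400 to 1 bp upstream the ratios were −0.24 for YHR050W-A, −0.65 for NTA1, −0.49 for IOC2, −0.48 for PRM2, −0.42 for RIM101, −0.57 for ARB1 and −0.063 for VIR1, so the direction of VIR1 turned. The ratio of VIR1 was also 0.43 with the 3 h aliquots alone, 0.37 without EM shuffle replicate 2 and 0.33 without the offset for the genome averages, where that of ARB1 was −0.57.

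At the CpG sites EM shuffle lay above WT Abf1 without overlap at 39 of 261 sites and below it at 7, beside 3.91% and 2.97% of all sites of the genome. It lay above no Abf1 at 43 sites and below it at 48, beside 6.68% and 6.4% of all sites. Inside a match 15 of 19 sites were lower in EM shuffle than in no Abf1, where 29.8% of such sites were in the genome, and at 7 to 15 bp 3 of 8 were, where 12.9% were. EM shuffle was above WT Abf1 at 5 of the 19 sites inside a match and at 0 of the 8, beside 20.5% and 13.8% in the genome. These counts too draw on the values that chose the genes, and nothing is read from the shares.

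The time with M.SssI, which had no part in the choice, was compared within each preparation. None of the 7 windows differed between the 4 h and the 3 h aliquots: the log2 odds ratios, relative to the rise of the genome average, ran from −0.20 ± 0.14 for PRM2 to 0.24 ± 0.16 for ARB1, with adjusted p from 0.912 to 0.986. Of 5845 windows 0 were called by the quasi-binomial model and 0 by limma on log2 odds, and 5.83% had an unadjusted p under 0.05.

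Coverage of the 7 regions, which reflects copy number and mapping, was 0.727 to 1.36 times the nuclear median over all libraries. The ranges of no Abf1 and WT Abf1 libraries overlapped in 6 of the 7 regions. At RIM101 they were 0.881 to 0.959 in no Abf1 and 0.781 to 0.871 in WT Abf1.

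Most other genes of the same pathways did not have a higher window. Of the other 3 genes of the ISW1 complexes, 2 had lower windows without Abf1: IOC4, at 29.2% ± 2.72 in no Abf1 and 63.3% ± 2.85 in WT Abf1 (log2 odds ratio −2.05, adjusted p = 5.15e-10), and IOC3, at 30.1% ± 0.455 and 39.5% ± 6.34 in the same constructs (−0.60, adjusted p = 0.00420). Ioc4 is a partner of Ioc2 in the Isw1b complex and Ioc3 belongs to Isw1a, and both windows were higher in EM shuffle than in no Abf1, by 1.81 and 0.70 (adjusted p = 1.06e-08 and 0.00209). Of the RIM101 pathway 8 other genes had a window, and RIM8 and SNF7 were lower (−0.40 and −0.41, adjusted p = 0.0457 and 0.0460). At SNF7 the no Abf1 and WT Abf1 libraries overlapped. The ratios of the other 9 PRM genes lay between −0.18 and 0.26 (smallest adjusted p = 0.514), those of the other 5 genes of the N-degron list between −0.16 and 0.16 (0.575), and those of the other 5 genes of the N6-methyladenosine writer list between −0.40 and 0.10 (0.115). Of the list of ABC-F and related proteins 4 other genes had a window, and RLI1, a ribosome recycling factor, was higher at 64.4% ± 1.96 in no Abf1 and 58.4% ± 3.99 in WT Abf1 (0.42, adjusted p = 0.0319). The libraries of these constructs overlapped at RLI1. In EM shuffle against WT Abf1 the smallest adjusted p among these other genes was 0.195, for RLI1. The medians of the other genes of each list in no Abf1 against WT Abf1 lay between −0.60 for the ISW1 complexes and 0.057 for the ABC-F list, beside −0.0043 over all windows.

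Of the 14 genes next to the 7, 5 face one of them across the shared promoter, and since their windows lie in or next to the chosen regions their values are a description as well. The no Abf1 over WT Abf1 ratios of these 5 were 1.51 ± 0.17 (SE) for RPA12, whose sites are those of NTA1, 1.07 ± 0.19 for CST6, 0.54 ± 0.12 for KIN2, 0.55 ± 0.26 for PNC1 at VIR1 and 0.26 ± 0.12 for PHM8 at ARB1. In RPA12, CST6 and KIN2 all no Abf1 libraries were above all WT Abf1 libraries, and in PNC1 and PHM8 they overlapped. The ratios of the 9 that do not face one lay between −0.29 and 0.22, and in all 9 the libraries overlapped.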

How the data were processed

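Per the labels and the study's methods, the authors called bases and CpG methylation with Dorado, aligned reads to sacCer3 (R64) with minimap2 2.17, sorted them with SAMtools (1.9 and 1.15), averaged methylation per position with modkit and used R 4.2.0. The deposited files give per position the corrected methylation as a fraction, the coverage as counts of calls, and the factor, a ratio of the construct's genome average to that of WT Abf1, by which the authors divided. Corrected values of EM shuffle can pass 1 and are then a ratio, at 1.22% to 1.63% of its positions.

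Here methylated calls were recovered from value, factor and coverage, and were whole numbers in 100% of rows. Both strands of a CpG were summed, and sites needed 5 calls in every library, which left 353646 of 354295 (99.8%). Windows from 250 to 51 bp upstream of 5845 start codons with at least 2 CpG sites were tested with a quasi-binomial logistic model on the aliquots' summed calls (pseudocount 0.5, offset for the genome averages, dispersion moderated with limma 3.58.1 in R 4.3.3, Benjamini-Hochberg adjustment), in one fit of all constructs. Times were compared within preparations. The test of windows was tried on simulated data with 200 changed windows. SD are over 2 replicates, each the mean of its aliquots. Mean squared differences between libraries were 1.04 to 2.16 times the counting error over 66 pairs. Python 3.11.15, numpy 2.4.6, scipy 1.17.1, pandas 2.3.3 and matplotlib 3.10.9 were used.

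Named are the 7 genes, their neighbours, list genes called in a construct comparison, and the 5 largest window and flank rises. Genes and lists were chosen with earlier results of these data known. Alternatives were no offset, either aliquot alone, limma on log2 odds, a minimum of 10 calls, a window from 400 to 1 bp, the compared constructs alone, a replicate block, each replicate left out, uncorrected values and other flanks.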

Additional observations from a re-analysis of the deposited data

Results flagged for a closer look

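Among 57 groups of 4 libraries, 3 held a library whose gap to the nearest of the others took up more of the group's range than Dixon's critical value allows, which chance gives in about 1 of 20 groups. The NTA1 window had 41.7% in EM shuffle replicate 2 at 4 h, and 51.3% to 53.0% in the other EM shuffle libraries. The match at −167 of IOC2 had 32.6% in WT Abf1 replicate 2 at 4 h, and 23.1% to 24.7% in the other WT Abf1 libraries. The match at −214 of VIR1 had 58.8% in no Abf1 replicate 2 at 3 h, and 65.8% to 67.0% in the other no Abf1 libraries.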

How the results depend on the processing

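The fits called 670 windows in no Abf1 against WT Abf1, 64 in EM shuffle against WT Abf1, 676 in EM shuffle against no Abf1 and 0 in 4 h against 3 h. Without the offset the counts were 682, 543, 2057 and 8. The split of higher and lower windows was then 355 and 327 instead of 233 and 437 in no Abf1 against WT Abf1, 14 and 529 instead of 30 and 34 in EM shuffle against WT Abf1, and 174 and 1883 instead of 493 and 183 in EM shuffle against no Abf1. The median log2 odds ratios of all windows were 0.08, −0.21, −0.29 and 0.10 without the offset. Relative to WT Abf1, the EM shuffle ratios without the offset were −0.0025 for VIR1, −0.11 for RIM101 and −0.14 for ARB1, and the 4 h over 3 h ratio of YHR050W-A was 0.037. With the 3 h aliquots alone the construct comparisons called 415, 15 and 294 windows, and the EM shuffle over no Abf1 ratio of RIM101 was 0.047. With the 4 h aliquots alone they called 319, 13 and 400. There the no Abf1 over WT Abf1 ratios were −0.056 for RIM101 and −0.054 for ARB1, and those of EM shuffle over WT Abf1 −0.26 and −0.079. Fewer calls per preparation entered these fits. Limma on log2 odds called 441 windows in no Abf1 against WT Abf1 and 40 in EM shuffle against WT Abf1, with 4 h over 3 h ratios of 0.0009 for YHR050W-A and −0.036 for NTA1. Over a window from 400 to 1 bp the ratios were 0.38 for VIR1 in no Abf1 over WT Abf1, 0.23 for IOC2 in EM shuffle over WT Abf1, −0.063 for VIR1 in EM shuffle over no Abf1 and 0.019 for RIM101 in 4 h over 3 h.

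Leaving out a replicate gave 405 (without WT Abf1 replicate 2) to 484 windows in no Abf1 against WT Abf1, and 17 (without WT Abf1 replicate 2) to 27 (without WT Abf1 replicate 1) in EM shuffle against WT Abf1, with 24 and 23 without EM shuffle replicates 1 and 2. It gave 253 (without EM shuffle replicate 2) to 474 in EM shuffle against no Abf1, with 436 without EM shuffle replicate 1 and 438 without no Abf1 replicate 1. A lone replicate was assumed to vary like the other constructs. The EM shuffle over WT Abf1 ratio then ran from −0.051 to 0.75 for VIR1 and from −0.11 to 0.41 for ARB1, and the EM shuffle over no Abf1 ratio of RIM101 from −0.23 to 0.0021. The 4 h over 3 h ratio ran from −0.17 to 0.10 for YHR050W-A, −0.12 to 0.12 for NTA1 and −0.22 to 0.0033 for RIM101, with 0 windows called each time.

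Replicate numbers did not pair the libraries (correlations of 0.014, −0.023 and 0.006), and the replicate block gave 634, 67 and 661 windows. At the matches, the flank difference of no Abf1 minus WT Abf1 was 0.51 points at YHR050W-A with uncorrected methylation, −0.057 at the RIM101 match at −261 with the 4 h aliquots alone, and −0.32 at the IOC2 match at −167 with flanks up to 150 bp. Without sites near another match it was −0.36 at the VIR1 matches at −264 and −249, −18.3 at that at −214, −1.18 and −0.13 at the RIM101 matches at −261 and −235, and −18.5 and −2.97 at the IOC2 matches at −143 and −167, since those sites carried the difference. The cause of the other changes was not tested. A window of a single library rests on 87 to 668 calls, with Wilson half-widths of 3.68 to 10.2 points before division by the factor. These cover the counting error of a single library only. Differences between libraries within that size cannot be told apart, and larger ones need not be.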
